A study of Homo sapiens with 4 samples.

Results

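Sites of 3 chromatin-associated proteins were examined at the loci of 10 immediate-early and stress response genes, NFKBIA, DUSP1, JUN, JUNB, FOS, ATF3, EGR1, MYC, KLF6 and IER2, in the human hepatocellular carcinoma cell line HepG2. The study immunoprecipitated formaldehyde-crosslinked chromatin with a different antibody in each of 3 libraries (SMRC1, SATB1 and NFIC), and set its antibodies against published profiles from commercial ones, which were not used here. SMRC1 (SMARCC1, also BAF155) belongs to the core of SWI/SNF, an ATP-driven nucleosome remodeller. SATB1 organises chromatin and binds AT-rich DNA, and NFIC is 1 of the nuclear factor I proteins, which bind a TTGGC motif. The labels describe no stimulus, only standard culture and crosslinking with 1% formaldehyde for 10 min. An input library is labelled too, but no file of it was analysed here. A locus was the gene, with its ends rounded to 1 kb on the hg19 build, plus 10 kb on either side, and every peak that overlapped this window was taken. The 10 windows span 302 kb and held 58 of the 46380 peaks of the 3 lists, of which 37 were SMRC1, 7 SATB1 and 14 NFIC peaks. The genes were picked from a known functional class with these peak lists in view, NFKBIA for a leading site shared by the 3 lists and DUSP1 for the widest NFIC peak, so peak numbers, widths and overlaps at these loci are given as a description, with no test. Each antibody had 1 library and no replicate, and differences between antibodies could not be set against a replicate spread.

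Immediate-early genes are switched on within minutes of a growth factor, cytokine or stress signal, without new protein synthesis, and most fall silent again soon after. Many encode transcription factors, such as the AP-1 subunits FOS, JUN and JUNB, the zinc finger protein EGR1 and the growth regulator MYC, while others, such as NFKBIA and DUSP1, encode inhibitors that shut the signal down. In liver cells these genes respond to growth factors and injury, and their promoters are commonly open before the signal arrives.

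The promoters of 5 of the genes are shown because their loci had the clearest contrasts. Peaks of all 3 lists lay at the start of NFKBIA and at or near that of DUSP1, and FOS had SMRC1 and SATB1 peaks. EGR1 had an SMRC1 and NFIC pair upstream, and IER2 had SMRC1 peaks alone. Each promoter is the 250 bases before the RefSeq start, 5′ to 3′ on the strand of the gene. The sequences come from a RefSeq table of the GRCh38.p14 build, whose coordinates cannot be set against the hg19 peaks. Capitals mark matches to the motifs searched.
NFKBIA, GRCh38.p14 chr14:35404750-35404999, minus strand: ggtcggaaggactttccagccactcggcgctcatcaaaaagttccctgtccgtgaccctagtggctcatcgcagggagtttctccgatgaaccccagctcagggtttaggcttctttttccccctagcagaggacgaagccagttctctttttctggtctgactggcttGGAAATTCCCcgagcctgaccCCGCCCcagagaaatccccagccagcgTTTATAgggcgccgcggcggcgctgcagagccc
DUSP1, GRCh38.p14 chr5:172771196-172771445, minus strand: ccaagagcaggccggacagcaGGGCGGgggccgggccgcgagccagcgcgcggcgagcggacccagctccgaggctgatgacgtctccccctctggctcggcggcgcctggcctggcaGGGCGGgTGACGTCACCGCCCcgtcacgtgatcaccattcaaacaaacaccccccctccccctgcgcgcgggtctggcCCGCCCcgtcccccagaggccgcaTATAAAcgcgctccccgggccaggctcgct
FOS, GRCh38.p14 chr14:75278578-75278827, plus strand: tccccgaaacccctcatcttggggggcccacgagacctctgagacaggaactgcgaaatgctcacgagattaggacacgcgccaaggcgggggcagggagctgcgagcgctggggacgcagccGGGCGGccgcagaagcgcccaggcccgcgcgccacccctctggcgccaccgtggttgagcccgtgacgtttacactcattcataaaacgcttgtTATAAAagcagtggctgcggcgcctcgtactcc
EGR1, GRCh38.p14 chr5:138465229-138465478, plus strand: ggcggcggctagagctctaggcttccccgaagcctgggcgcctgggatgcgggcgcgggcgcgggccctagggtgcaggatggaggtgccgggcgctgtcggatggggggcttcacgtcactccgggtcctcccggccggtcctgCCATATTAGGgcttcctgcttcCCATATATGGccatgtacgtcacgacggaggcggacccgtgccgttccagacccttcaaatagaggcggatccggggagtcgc
IER2, GRCh38.p14 chr19:13150161-13150410, plus strand: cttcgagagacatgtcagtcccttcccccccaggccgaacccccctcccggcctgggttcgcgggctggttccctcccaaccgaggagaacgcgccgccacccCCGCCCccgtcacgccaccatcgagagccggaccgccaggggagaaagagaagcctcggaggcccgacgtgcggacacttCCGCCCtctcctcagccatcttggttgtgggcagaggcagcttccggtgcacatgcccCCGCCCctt

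The motifs were searched on both strands in these 250 bases, for 9 of the 10 genes, as the table held no entry for the remaining one. In NFKBIA the capitals mark a site of the NF-kappaB type between positions -81 and -72 from the start, NF-kappaB being the factor that its product inhibits, a GC box (GGGCGG) at -60 to -55 and a TATA match (TATAAA) at -33 to -28. In DUSP1 they mark a cyclic AMP response element (TGACGTCA) at -125 to -118, which directly adjoins a GC box at -117 to -112, beside 3 further GC boxes and a TATA match. EGR1 had 2 serum response element cores, CC and GG around 6 letters A or T, at -105 to -96 and -83 to -74. FOS had a GC box and a TATA match, and IER2 had 3 GC boxes. At the first listed start of the 9 genes, GC boxes occurred in 7 (42.6% of all 35116 promoters in the table), TATA matches in 4 (10.7%) and CCAAT in 4 (32.0%). A second listed start of ATF3, left out of these counts, had a TATA match and 55.2% A and T. The cyclic AMP element, the serum response core and the NF-kappaB forms occurred in 1 gene each, against 1.65%, 1.16% and 0.718% of all promoters. No window of the 9 held the AP-1 motif TGACTCA (1476 of all 35116 promoters) or the palindromic NFI site (0.0285%). None held TTGGCA either, a longer form of the NFI motif (10.8%). The shorter TTGGC was not searched, and the FOS window holds it unmarked on the other strand, as gccaa. The share of A and T in the 9 windows ran from 25.6% in DUSP1 to 50.8% at the first start of ATF3, with a median of 42.0% over all promoters. These are matches of letters in short windows and say nothing of binding.

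The lists themselves held 29441 peaks for SMRC1, 3296 for SATB1 and 13643 for NFIC. Each peak carries the authors' fold over local background and a −log10 q, the strength by which peaks are ranked here. For all 58 window peaks, the fold and the p-value together gave back the number of reads at the summit and the local background in control fragments. The SMRC1 library was 1.29 times as deep as its control, NFIC 1.007 times and SATB1 0.877 times, and the absolute depth is unknown. Reads and backgrounds are given before scaling for this depth. Their ratio is therefore not the fold and is not comparable between lists. SATB1 peaks thus came from the library with the least depth relative to its control, which does not show it to be the shallowest library. A locus without a SATB1 peak is a locus without a call in this list, not one shown to lack the protein. Whether depth bears on such loci was not tested.

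SMRC1 peaks were found in all 10 windows, NFIC peaks in 8 and SATB1 peaks in 6. Across the chromosomes cut into 25 kb tiles, 16.3% of tiles held an SMRC1 peak, 9.38% an NFIC peak and 2.43% a SATB1 peak. Among tiles with an SMRC1 peak, 39.2% also held an NFIC peak and 13.1% a SATB1 peak. Peaks of all 3 lists lay in 5 windows, those of NFKBIA, DUSP1, JUN, JUNB and KLF6. Of all tiles 1.04% held all 3, and of the tiles with an SMRC1 peak of −log10 q of at least 10, 10.3% did. NFKBIA was chosen for a site shared by the 3 lists and DUSP1 for its NFIC peak, so the window counts are not independent of the choice. ATF3, EGR1 and MYC had SMRC1 and NFIC peaks, FOS had SMRC1 and SATB1 peaks, and IER2 had SMRC1 peaks alone. An SMRC1 peak with a −log10 q of at least 10 was present in 9 windows, all but that of EGR1, against 8.65% of tiles. The tiles include gene-poor and unassembled sequence and the ATF3 window is 77 kb long, so the shares are a coarse scale. How far the windows differ from those of other promoters was not tested, since no hg19 gene annotation was used.

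**Figure D1:**
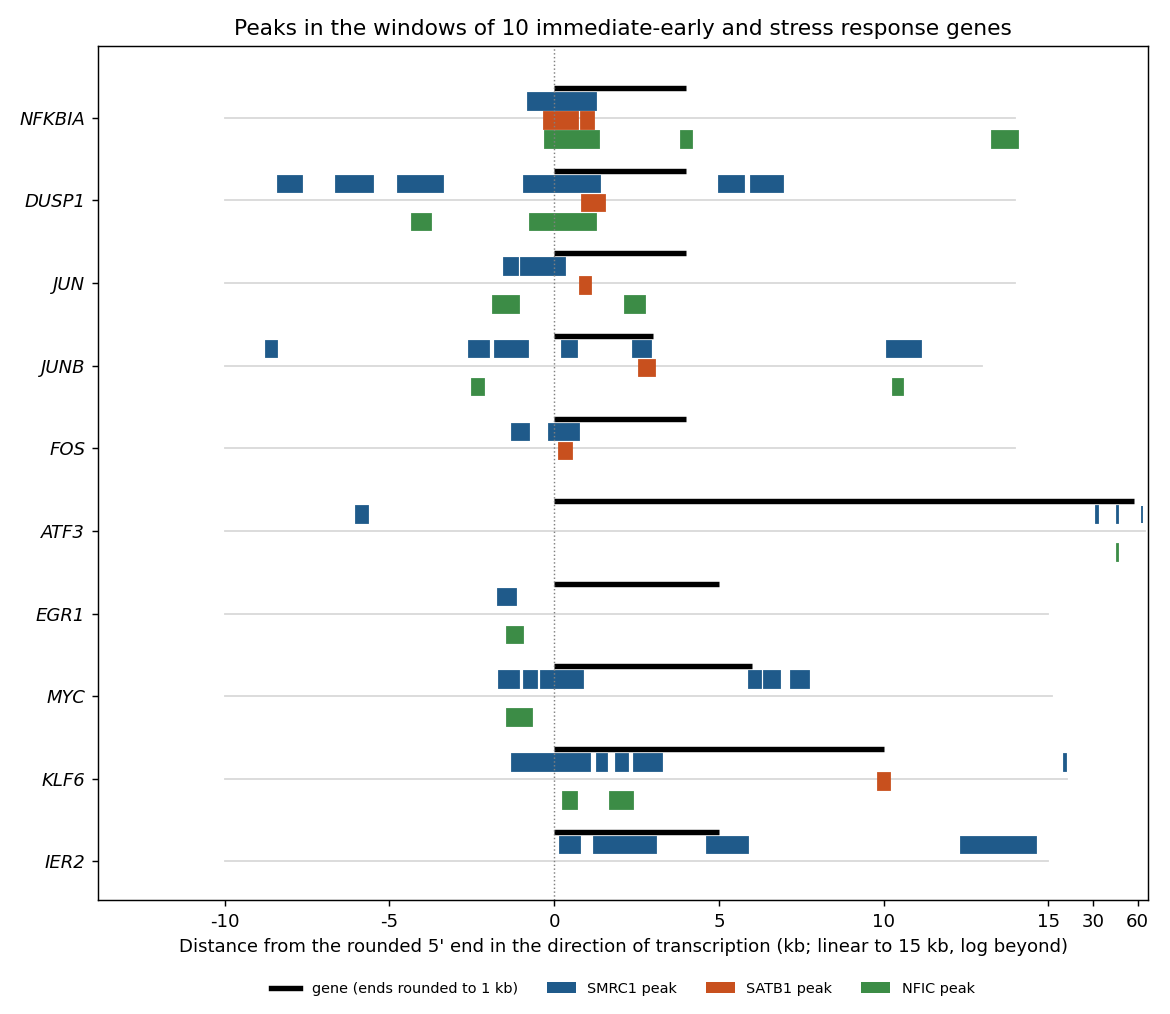
Position of the 58 peaks in the 10 windows, in kb from the rounded 5′ end of each gene in the direction of transcription (linear to 15 kb, logarithmic beyond), with 1 lane per list and the gene as a black bar. In 9 of the 10 genes at least 1 SMRC1 summit lies within 2 kb of the 5′ end, while ATF3 has its peaks farther away. The share for other genes was not computed.

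Peak summits were denser in the windows than beside them. The windows held 12.3 SMRC1, 4.64 NFIC and 2.32 SATB1 summits per 100 kb, compared with 4.14, 1.66 and 0 in flanks of the same length on each side (604 kb in all) and 0.951, 0.441 and 0.106 over whole chromosomes. Without NFKBIA and DUSP1, the loci chosen for their peaks, the windows held 11.8 SMRC1, 3.54 NFIC and 1.57 SATB1 peaks per 100 kb. Within 2 kb of the rounded 5′ end, 16 of the 37 SMRC1 summits, 7 of the 14 NFIC summits and 5 of the 7 SATB1 summits were found, in 9, 6 and 4 genes. The rounded end itself lay inside an SMRC1 peak in 6 genes (NFKBIA, DUSP1, JUN, FOS, MYC and KLF6), inside an NFIC peak in 2 (NFKBIA and DUSP1) and inside a SATB1 peak in 1 (NFKBIA). All distances from the 5′ end carry the 1 kb rounding. The 2 kb zone was chosen after the data were seen. The same counts for other promoters were not computed, so whether peaks near the 5′ end are particular to these genes was not tested.

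By −log10 q the window peaks were mixed and near the middle of each list. Their median −log10 q was 7.66 for SMRC1 (95% interval of the median 6.10 to 11.6), against 8.74 in the other SMRC1 peaks. For NFIC it was 9.92 (4.18 to 28.0), against 9.27, and for SATB1 5.37 (3.02 to 14.9), against 5.40. Each interval of the windows covers the median of the other peaks. The median fold was 3.60 for SMRC1 (3.32 to 4.40), against 4.08 in the other peaks, and 4.08 for NFIC (2.89 to 6.59), against 4.87. For SATB1 it was 3.99 (2.05 to 4.54), against 3.54. The fold intervals also cover the medians of the other peaks. The intervals treat peaks of 1 locus as separate and include the chosen loci, so whether strength is shifted was not tested. Without NFKBIA and DUSP1, the median percentile by −log10 q within the list was 39.2 for SMRC1, 41.9 for SATB1 and 53.1 for NFIC. Over the 10 windows it was 44.0, 49.3 and 53.3. Among the highest 10% of their list were 6 of the 37 SMRC1 peaks, in NFKBIA, DUSP1, JUNB (with 2), FOS and KLF6, and 1 of the 14 NFIC and 1 of the 7 SATB1 peaks, both at NFKBIA. In width, 10 of the 37 SMRC1 peaks were among the widest 10% of their list, and the median width was 725 bp (553 to 985), against 607 bp in the other peaks. NFIC had 4 of 14 among its widest 10% and a median of 581.5 bp (355 to 795), against 490 bp, and SATB1 had 2 of 7 and a median of 387 bp (323 to 1033), against 399 bp. Each width interval covers the median of the other peaks. Some of these wide peaks lie at NFKBIA and DUSP1, the loci chosen for their peaks. At the 8 loci without them, 7 of 30 SMRC1, 1 of 9 NFIC and 0 of 4 SATB1 peaks were among the widest 10%, and the median SMRC1 width was 584.5 bp, below that of the other peaks. All intervals cover counting error only.

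**Figure D2:**
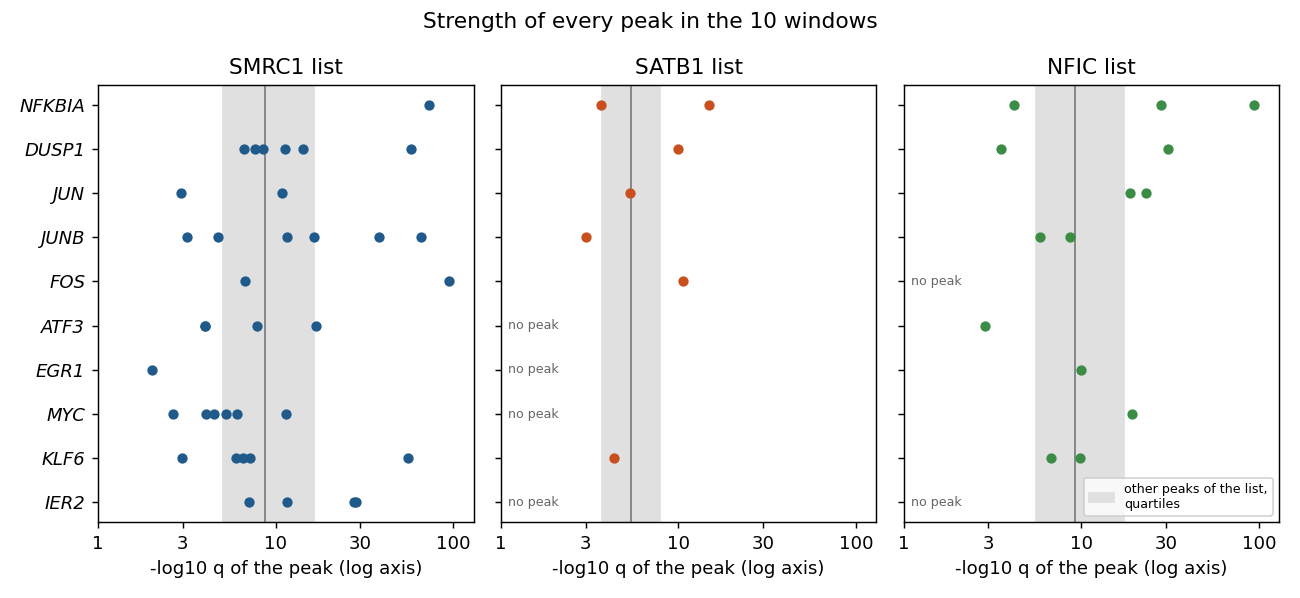
Strength of each window peak as −log10 q on a log axis, by gene and list, with the quartiles (grey band) and the median (line) of the other peaks of that list. SMRC1 peaks at NFKBIA, DUSP1, JUNB (2), FOS, KLF6 and IER2 (2) lie clearly to the right of the band. The EGR1 peak lies to its left at 2.005, as do other SMRC1 peaks at JUN, JUNB, ATF3, MYC and KLF6.

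NFKBIA encodes IκBα, the inhibitor that holds NF-kappaB in the cytoplasm and is itself induced by it. Its start lay under the strongest NFIC peak and the strongest SATB1 peak of the 10 windows. The NFIC peak (hg19 chr14:35872629-35874281, 1653 bp) had a −log10 q of 93.9, rank 224 of 13643, and was the 10th widest of the list. The SMRC1 peak over it (chr14:35872722-35874808, 2087 bp) had a −log10 q of 72.7, rank 376 of 29441. A pair of SATB1 peaks lay inside, a strong one (chr14:35873271-35874303, 1033 bp, −log10 q 14.9, rank 153 of 3296) and a weak one (chr14:35872796-35873171, 376 bp, −log10 q 3.66). The strong SATB1 peak is the site that, with its SMRC1 and NFIC peaks, led to the choice of this gene. The folds at this start ranked lower than the −log10 q, at 5.93 for NFIC (rank 4503 of 13643), 5.35 for SMRC1 (rank 7047 of 29441) and 2.93 and 2.05 for SATB1 (ranks 2585 and 3278 of 3296). The NFIC summit held 232 reads over a background of 38 control fragments, the SMRC1 summit 255 reads over 36.2, and the SATB1 summits 98 reads over 37.4 and 64 over 35.0. These backgrounds were among the highest anywhere in the lists, with rank 3 of the NFIC peaks, 12 of the SMRC1 peaks and 7 and 11 of the SATB1 peaks. Peaks elsewhere on chromosome 14 had median backgrounds of 6.16, 8.74 and 10.0 control fragments in the NFIC, SMRC1 and SATB1 lists. The part of this raised control signal in the overlap of the 3 lists was not tested. Farther along, 2 NFIC peaks stood without another list, a weak one near the 3′ end of the gene (chr14:35869825-35870145, −log10 q 4.18) and a stronger one 13.6 kb from the start (chr14:35859915-35860709, −log10 q 28.0, fold 8.90), which straddles the window edge. That distal peak had 48 reads over a background of only 4.47.

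DUSP1 encodes a phosphatase that inactivates MAP kinases, a feedback brake on the signals that induce it. Near its start lay the other site shared by the 3 lists, with the SATB1 peak 0.853 kb from the rounded 5′ end. The NFIC peak there (chr5:172197724-172199743) was 2020 bp wide, the widest of all 13643, with a −log10 q of 30.8 and a fold of 6.59 from 69 reads over 9.55 control fragments. It lay entirely within an SMRC1 peak of 2303 bp (chr5:172197599-172199901, −log10 q 58.1, rank 716), whose fold of 11.7 (108 reads over 6.24) was the 232nd highest of its list. The SATB1 peak (chr5:172197455-172198147, 693 bp, −log10 q 9.95, rank 468, fold 4.04) covered the gene-side edge of both. The backgrounds here were lower than at NFKBIA, at 6.24 control fragments for SMRC1, 9.55 for NFIC and 11 for SATB1. Peaks elsewhere on chromosome 5 had medians of 7, 4.64 and 8.03, so the NFIC and SATB1 values lay above those of their chromosome. The 3 summits were not at 1 place. SMRC1 peaked 0.41 kb upstream of the rounded 5′ end, NFIC 0.59 kb inside the gene and SATB1 1.08 kb inside it. Of the SMRC1 peaks, 5 more lay in the window, 3 upstream and 2 beyond the 3′ end, with −log10 q of 6.62 to 14.3, so that SMRC1 peaks covered 30.04% of the window, the largest share of the 10. Of these, 1 overlapped a weak NFIC peak 3.9 kb upstream (chr5:172202751-172203306, −log10 q 3.55).

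Of the AP-1 family, FOS had the strongest SMRC1 peak of the 10 windows. FOS pairs with a JUN protein to bind AP-1 sites, and its gene is a classic example of the class. The peak (chr14:75744842-75745750, 909 bp) had a −log10 q of 94.4, rank 165 of 29441, and a fold of 13.0, rank 128, from 167 reads over 9.05 control fragments. A SATB1 peak lay within it (chr14:75745155-75745539, 385 bp, −log10 q 10.5, rank 416), with 38 reads over 8.65 and summits 61 bp apart. The nearest NFIC peak was 79.1 kb from the start. FOS and NFKBIA share chromosome 14, and the background at FOS was close to the chromosome median of 8.74 for SMRC1. Another, weaker SMRC1 peak lay 1.1 kb upstream (−log10 q 6.75).

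JUN, the main partner of FOS, had peaks of the 3 lists spread out side by side. An SMRC1 peak of 1353 bp (chr1:59249664-59251016, −log10 q 10.9, 63 reads over 13) covered the rounded 5′ end. The SATB1 peak (chr1:59248887-59249209, −log10 q 5.37, 24 reads over 6) lay 455 bp farther into the gene and overlapped no other list. NFIC had 2 stronger peaks, 1 about 1.6 kb upstream (chr1:59251069-59251853, −log10 q 18.9, fold 6.94) on a weak SMRC1 peak (−log10 q 2.93), and 1 within the gene 2.5 kb from its start (chr1:59247230-59247836, −log10 q 23.1, fold 6.39), which overlapped neither other list. The large SMRC1 peak at the start and the upstream NFIC peak stood 53 bp apart without touching.

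JUNB, which also pairs with FOS and often restrains JUN, had 6 SMRC1 peaks, with the strongest sites away from its start. The first was an SMRC1 peak 10.8 kb from the start, beyond the 3′ end (chr19:12912107-12913122, −log10 q 66.2, rank 477, fold 10.4, 133 reads over 9), which held a narrow NFIC peak (−log10 q 5.85). The second was an SMRC1 peak 1.3 kb upstream (chr19:12900210-12901194, −log10 q 38.1, 117 reads over 14). At the start itself the SMRC1 peak was weak (−log10 q 4.71), and near the 3′ end an SMRC1 peak (chr19:12904408-12904953, −log10 q 16.5) overlapped a SATB1 peak (chr19:12904582-12905063, −log10 q 3.02), with summits 66 bp apart. The remaining NFIC peak (−log10 q 8.62) lay 2.3 kb upstream on an SMRC1 peak of −log10 q 11.6.

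ATF3, a stress-induced transcription factor that also dimerises with JUN proteins, had no peak within 2 kb of its rounded 5′ end. The only overlap was deep in the gene, 44 kb from that end, where an SMRC1 peak of 1232 bp (chr1:212781427-212782658, −log10 q 16.9, 58 reads over 7.8) held an NFIC peak (chr1:212781621-212782162, −log10 q 2.89, 25 reads over 8.32) with summits 73 bp apart. ATF3 has more than one start, and whether this pair lies at one of them was not determined, as the starts could not be placed on hg19. The other 3 SMRC1 peaks had −log10 q of 4.02 to 7.84.

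EGR1, a zinc finger transcription factor induced through serum response elements, was the weakest locus for SMRC1. Its single SMRC1 peak (chr5:137799284-137799840) had a −log10 q of 2.005, rank 28860 of 29441, with 36 reads over a background of 12. An NFIC peak on it (chr5:137799562-137800066, −log10 q 9.96) had 56 reads over 17. That background had rank 642 of the 13643 NFIC peaks, and the fold of 3.14 had rank 11965. NFIC peaks elsewhere on chromosome 5 had a median background of 4.64. The SMRC1 and NFIC summits were 76 bp apart, about 1.1 to 1.2 kb upstream of the rounded 5′ end, and no peak of any list covered that end. No SATB1 peak was listed within 112 kb of it.

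KLF6, a zinc finger factor described as a tumour suppressor, had 5 SMRC1 peaks, with the widest SMRC1 peak of the 10 windows over its start (chr10:3826926-3829293, 2368 bp, −log10 q 55.4, rank 805, 148 reads over 15). It held a weak NFIC peak (chr10:3827297-3827723, −log10 q 6.80, fold 3.05), with summits 99 bp apart. A stronger NFIC peak (chr10:3825609-3826293, −log10 q 9.88) lay 1.9 kb inside the gene on a small SMRC1 peak (−log10 q 5.95). The SATB1 peak of this window (chr10:3817794-3818180, −log10 q 4.34) was at the other end of the gene, 10.0 kb from the start, with 18 reads over 4.02 control fragments, and overlapped no other list.

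IER2, a small nuclear protein of the immediate-early class whose molecular role is less well defined, had only SMRC1 peaks. There were 4, covering 23.9% of the window, and the widest were 1893 bp (chr19:13262207-13264099, −log10 q 27.7, 102 reads over 15) in the gene and 2265 bp (chr19:13273354-13275618, −log10 q 28.2, 82 reads over 9.05) beyond its 3′ end. The nearest NFIC peak was 17.3 kb from the start and the nearest SATB1 peak 204 kb from it.

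MYC, a regulator of growth and biosynthesis on chromosome 8, had 6 SMRC1 peaks in 2 clusters of 3. The first cluster was at the start, where the widest peak (1275 bp, −log10 q 11.4, 53 reads over 9.36) covered the rounded 5′ end. The second lay around and beyond the 3′ end of the gene, 6.0 to 7.5 kb from the start, with −log10 q of 2.65 to 6.10. A single NFIC peak (776 bp, −log10 q 19.3, 53 reads over 9) lay 1.0 kb upstream and overlapped both weaker SMRC1 peaks of the first cluster, which had −log10 q of 5.23 and 4.08. The nearest SATB1 peak was 2708 kb from the start.

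**Figure D3:**
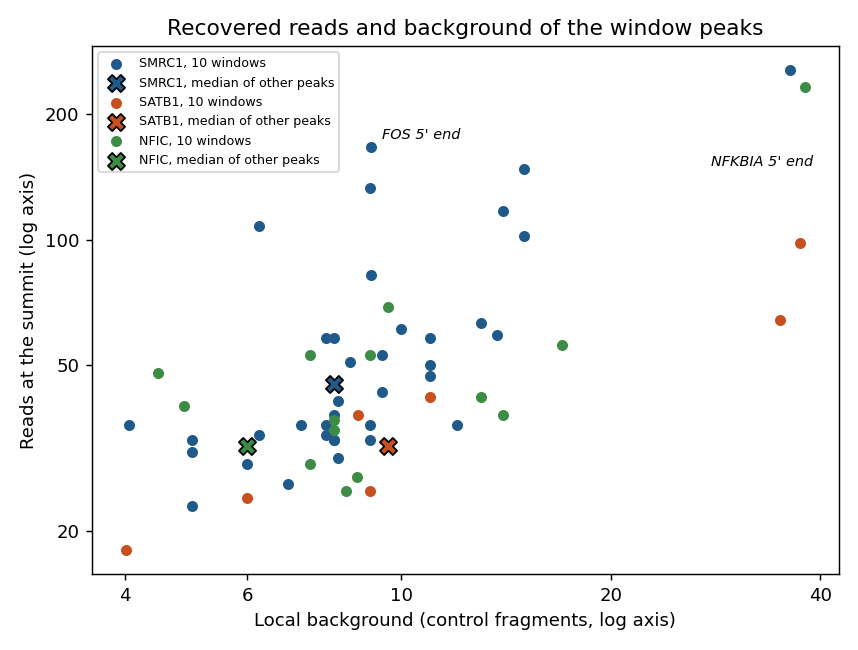
Reads at the summit against local background in control fragments for the 58 window peaks, both on log axes, with crosses at the medians of the other peaks of each list. Both are shown before scaling for depth. The 4 peaks at the NFKBIA start stand apart at backgrounds of 35.0 to 38, while all others lie between 4.02 and 17.

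Taking the windows as a whole, 11 of the 14 NFIC peaks (78.6%, 95% Clopper-Pearson interval 49.2 to 95.3) overlapped an SMRC1 peak, compared with 51.8% of the other NFIC peaks. SATB1 peaks did so in 5 of 7 cases (71.4%, 29.0 to 96.3), compared with 78.5%. Of the SMRC1 peaks, 12 of 37 (32.4%, 18.0 to 49.8) had an NFIC peak, compared with 23.7%, and 4 (10.8%, 3.03 to 25.4) had a SATB1 peak, compared with 8.61%. Each of these intervals covers the share of the other peaks. Overlap of all 3 lists occurred in 3 of the 7 SATB1 peaks (42.9%, 9.90 to 81.6), compared with 25.9% of the other SATB1 peaks. Of the 3, 2 were at NFKBIA, chosen for such a site, and 1 at DUSP1, chosen for its NFIC peak. The remaining 8 loci had 0 among 4 SATB1 peaks, although JUN, JUNB and KLF6 carried peaks of the 3 lists in 1 window.

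Summits of overlapping peaks had larger median distances in the windows than elsewhere in the lists, over few pairs. These include the pairs at NFKBIA and DUSP1, the loci chosen for their peaks. The 12 pairs of SMRC1 and NFIC peaks had a median distance of 210 bp (73 to 992), compared with 86 bp in 7131 other pairs, and 4 of the 12 lay within 150 bp, compared with 67.9%. The 5 pairs of SMRC1 and SATB1 peaks had a median of 163 bp, compared with 87 bp. Only those at NFKBIA (163 and 507 bp) and DUSP1 (1490 bp) lay above 87 bp. Those at FOS (61 bp) and JUNB (66 bp), the only pairs at the other loci, lay below it. In the 3 pairs of SATB1 and NFIC peaks the distances were 11 and 333 bp at NFKBIA and 498 bp at DUSP1, compared with a median of 110 bp. The longest distances were those of the wide peaks, and a summit is 1 position for a peak of up to 2368 bp. With a rule of summits within 150 bp in place of overlap, 0 SATB1 peaks of the windows were shared with both other lists.

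**Figure D4:**
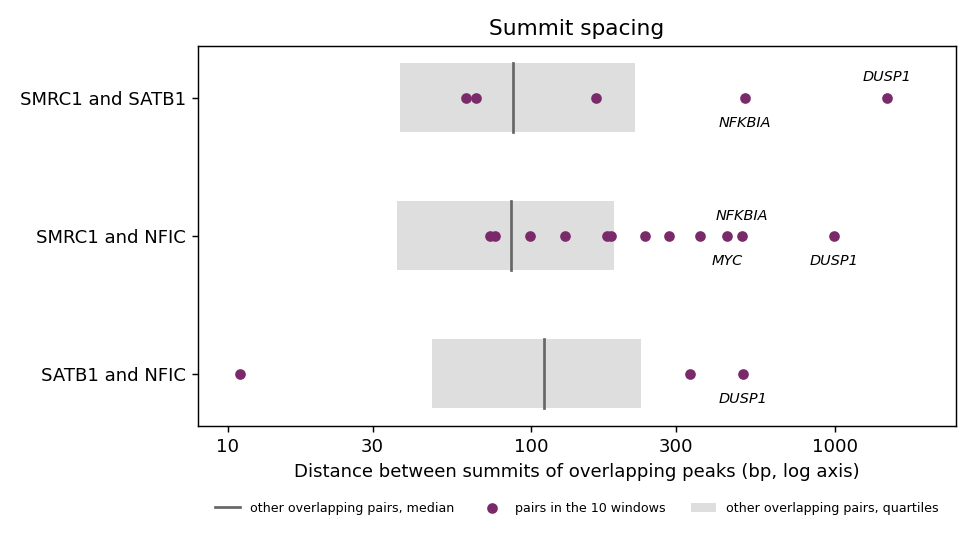
Distance between the summits of overlapping peaks in bp, on a log axis, for the pairs in the 10 windows (points) and the quartiles and median of all other overlapping pairs (grey bars and lines). Pairs over 400 bp apart are named, and the DUSP1 pairs lie farthest right in each row.

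The 10 kb limit left out 7 peaks within the next 5 kb, 6 of SMRC1 and 1 of NFIC. Just inside it stood the NFIC peak at NFKBIA that straddles the edge and an SMRC1 peak of KLF6 (chr10:3808154-3808739, −log10 q 7.16). Just outside, 329 bp beyond the DUSP1 window, was an SMRC1 peak of −log10 q 9.13. At IER2, an overlapping pair of SMRC1 (−log10 q 13.6) and NFIC (−log10 q 12.2) peaks lay 2180 and 2301 bp outside, so the lack of an NFIC peak in that window depends on its limit.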

How the data were processed

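ChIP-seq peak lists of 3 HepG2 libraries, 1 per antibody, were analysed. Per the submitters' processing notes, reads were processed on hg19 with Bowtie 1.1.2, SAMtools, MACS2 2.1.1 and deepTools; settings and control were not given in the sources used here. The peak lists follow the narrowPeak layout of 10 columns. The deposited score, which was left unused, equals 10 times the −log10 q without its decimals, apart from 2 SMRC1 peaks. Fold values are a ratio over local background and, like the −log10 p and −log10 q, are used as the authors deposited them. No list goes below a −log10 q of 1.

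Members and lists were chosen with earlier results of these data known. All 10 genes are named, each with the strongest peak per list, the peaks of sites shared by the 3 lists and those the choice of genes rests on; other peaks were added after their values were seen. Peaks overlap if they share at least 1 bp. The 2 kb zone at the 5′ end and the 400 bp mark for summits were chosen after seeing the data. Gene strands follow the RefSeq table, and that of MYC textbook knowledge. For each summit, the whole number of reads and the background were found that give both the deposited fold and the deposited −log10 p as MACS2 computes them. The fold is (pileup + 1)/(background + 1), and the −log10 p is a Poisson tail, matched within 0.02. The pileup is the reads divided by 1.288 for SMRC1 and 1.007 for NFIC, and the reads themselves for SATB1. For SATB1 the background in control fragments enters multiplied by 0.877. This succeeded in 29440 of 29441 SMRC1, 3294 of 3296 SATB1 and 13640 of 13643 NFIC peaks. The factor of the SATB1 control was the one that made the most backgrounds below 15 whole to within 0.002, 43.9% of them. The solution for reads and background and the ChIP factor was tested on simulated data, the search for the control factor was not. Shares have exact Clopper-Pearson 95% intervals and medians binomial 95% intervals of order statistics, for counting error only; no p-values were computed. The planned list of further immediate-early genes needed an hg19 annotation and was not analysed here. Chromosome lengths came from circlize 0.4.16 in R 4.3.3. Computation used scipy 1.17.1, pandas 2.3.3 and numpy 2.4.6 under Python 3.11.15, and plots matplotlib 3.10.9.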

Additional observations from a re-analysis of the deposited data

How the results depend on the processing

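No paired analysis was possible because each antibody had 1 library. Of 244 values recomputed under the alternatives, 196 stayed within 1.5 times of the count or within the interval of the share or median. Some of these could not move, so the tally does not measure robustness. Assigning peaks by their summit, a −log10 q of at least 2, leaving out ATF3 and asking for overlap of 0.5 of the shorter peak moved none of the values beyond that. The first 2 dropped no window peak, as 0 summits lay outside the windows and the lowest −log10 q was 2.005. Lists of equal length left the SATB1 list whole, and counts near the 5′ ends do not depend on the window length. With windows of 5 kb either side none moved, and with 25 kb the density was 1.16 SATB1 and 2.99 NFIC peaks per 100 kb, as the longer windows held 7 SATB1 and 18 NFIC peaks. Without NFKBIA and DUSP1 the median SMRC1 width was 584.5 bp, below the 607 bp of the other peaks.

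Restricted to peaks with −log10 q of 10 or more, the windows held 16 SMRC1, 2 SATB1 and 6 NFIC peaks (5.30, 0.662 and 1.99 per 100 kb). These were 43.2%, 28.6% and 42.9% of the window peaks, against 43.7%, 13.8% and 46.3% of the other peaks of each list. SATB1 peaks were in 2 and NFIC peaks in 4 windows, with 8 SMRC1, 2 SATB1 and 4 NFIC peaks near the 5′ ends. The SMRC1 peaks then had a median fold of 5.29 and a median width of 1227 bp, 12.5% of them overlapped NFIC, 33.3% of NFIC and 100% of SATB1 peaks overlapped SMRC1, and 1 SATB1 peak was shared by all 3 lists. With the 3296 strongest peaks of each list the windows held 6 SMRC1 and 6 NFIC peaks (1.99 per 100 kb each), in 5 and 4 windows, with 5 and 4 near the 5′ ends. The SMRC1 peaks then had a median fold of 8.84, a median width of 1551.5 bp and a median percentile of 81.9, 50% of them overlapped SATB1, and 33.3% of NFIC peaks overlapped SMRC1. These are smaller lists by construction, and the overlap shares of the whole lists at the same cuts were not computed.

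Without NFKBIA and DUSP1, 4 SATB1 and 9 NFIC peaks were left, with 2 SATB1 peaks near 5′ ends, 0 sites shared by all 3 lists, and 0% of SATB1 peaks at NFIC peaks or the reverse. With summits within 150 bp in place of overlap, 0 sites were shared by all 3 lists, 10.8% of SMRC1 peaks met NFIC, 28.6% of SATB1 peaks met SMRC1 and 28.6% of NFIC peaks met SMRC1. A factor 1% higher or lower for the ChIP depth left 3 or 2 of 37 SMRC1, 2 or 0 of 7 SATB1 and 0 or 1 of 14 NFIC peaks solved. The SATB1 library had the least depth relative to its control, with absolute depths unknown, and intervals cover counting error only.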
